A study of Mus musculus with 6 samples.

Results

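The genes described here are the MYC network and its partners, 10 genes taken by name: Myc, Mycn, Max, Mxd1, Mxd3, Mxd4, Mxi1, Mnt, Cdca7 and Cdca7l. The arrays carried 17 probes for them among 41174 non-control probes, and every one of the 10 genes had at least 1 probe. After the filter on dim probes, 15 of the 17 were tested, among 25393 probes tested in all. Expression was measured on 6 one-colour arrays of mouse embryonic fibroblasts at day 8 of reprogramming. All cultures carried virus for the factors abbreviated SKO, and 2 arrays each came from cultures that also received Flag, Gadd45a, or G39A, which the labels call a negative mutant of Gadd45a. Every culture was grown in serum medium with LIF for 6 days after infection. SKO is not written out in the labels, and among reprogramming studies it is the common short form for a mix of Sox2, Klf4 and Oct4 (encoded by Pou5f1) that lacks added Myc. The sources used here do not give the kind of virus, its promoter or the strain of the fibroblasts. The series compares Gadd45a, a stress-inducible gene of growth arrest, with its mutant and with Flag during reprogramming.

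MYC and MYCN are transcription factors that bind DNA as dimers with MAX, at E-box sites of the letters CACGTG, and raise the transcription of genes of growth and cell division. MXD1, MXD3, MXD4, MXI1 and MNT also pair with MAX, and these dimers bring corepressors to the same kind of site. In fibroblasts Myc is induced by serum growth factors, and added MYC is a common but dispensable component of reprogramming mixes. Cdca7 is a MYC-responsive gene whose protein recruits the chromatin remodeller HELLS, and Cdca7l encodes a related nuclear protein that binds MYC.

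Where a probe lies decides what it can read, so 3 probes are shown as the files give them, in lower case and 5′ to 3′ on the transcript strand. In the first pair, capitals mark the longest run of letters that the Myc and Mycn probes share, 8 bases of 60.
Myc probe A_52_P278549 (mm9, chr15:61820925-61820984, plus strand): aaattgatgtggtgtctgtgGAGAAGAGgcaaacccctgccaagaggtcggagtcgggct
Mycn probe A_51_P497332 (mm9, chr12:12944312-12944371, minus strand): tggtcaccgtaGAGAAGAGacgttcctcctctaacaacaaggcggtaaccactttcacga
Myc probe A_52_P108346 (mm9, chr15:61821417-61821476, plus strand): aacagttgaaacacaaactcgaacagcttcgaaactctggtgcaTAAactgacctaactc
In the last of these, capitals mark the stop codon of Myc, which begins at base 45 of the probe and leaves 13 bases of the 3′ untranslated region. The remaining Myc probe, A_51_P102096 (chr15:61821516-61821576, plus strand), starts at base 1998 of the transcript, against base 1899 for the probe across the stop codon, and so lies in the 3′ untranslated region. A_52_P278549 starts at base 1407, in the coding part. The 3 Myc probes therefore read a coding stretch before the stop codon, the stop codon itself and the untranslated end of the same transcript.

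The E-box was also searched in the members' own promoters, in RefSeq windows of build GRCm38.p6 that run from 250 bases before to 50 bases after each start site. Of the members, 9 had an entry, with 11 windows. The letters CACGTG, which read the same on both strands, were found in 3 of the 11 windows (27.3%), against 7.15% of all 32851 windows of the same length. The windows with the motif belong to Mxd4, Mnt and Max, and are shown around it with the motif in capitals.
Mxd4 (chr5:34187897-34187956, minus strand, motif 219 bases before the start site): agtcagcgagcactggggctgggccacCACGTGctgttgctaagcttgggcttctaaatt
Mnt (chr11:74830774-74830833, plus strand, motif 123 bases before the start site): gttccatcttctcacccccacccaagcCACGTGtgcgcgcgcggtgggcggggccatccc
Max (chr12:76962246-76962281, minus strand, motif 3 bases before the start site): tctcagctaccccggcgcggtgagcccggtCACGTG
The windows of Mycn, Mxd1, Mxd3, Mxi1, Cdca7 and Cdca7l did not hold these letters. A match describes the sequence and shows no binding.

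Between 57.0% and 62.9% of spots were well above background on each array, and 0 were saturated. Of 12 fibroblast markers, 11 or 12 were well above background on each array, which does not by itself show the labelled cell type. In the limma fit below 9 of them were higher in replicate 2 and 0 lower, where 32.3% and 24.5% of all genes were. Their median difference was 2.21 (log2). Of 11 epithelial markers, 8 were well above background in replicate 1 and 4 to 5 in replicate 2. The introduced genes did not all follow the labels. Klf4 was bright on all 6 arrays (15460 to 19700), and Sox2 was well above background on 1 of 6, at 8.40, 8.57 and 12.5 in replicate 1 and 21.9, 14.9 and 14.8 in replicate 2. Pou5f1 gave 3851, 5153 and 6363 on the Flag, Gadd45a and G39A arrays of replicate 1, but 3.57, 4.22 and 4.40 on those of replicate 2, where it was not well above background. Gadd45a was not brighter on the arrays labelled Gadd45a (1017, 560 and 1395, then 2309, 1870 and 2147). All directions here are therefore those of arrays labelled SKO, in both replicate numbers, and whether the probes read the introduced copies was not tested. The replicate numbers also differed in slide: all 3 replicate 2 arrays shared a slide, while the replicate 1 arrays lay on 2 others, Flag with Gadd45a on one and G39A alone. Slide and replicate number thus cannot be told apart.

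Across the 6 arrays, the MYC network split by replicate number more than by group. Myc, Mycn, Max, Mxd3, Mxi1 and Cdca7 were lower on the replicate 2 arrays, Mycn 4.45-fold and Myc 1.86-fold by its brightest probe, whereas Mxd1, Mxd4 and Mnt did not pass the test. Cdca7l also passed, but it was dim on 4 of the 6 arrays, its replicate numbers overlapped and it passed in 2 of 14 alternative settings. Max and Cdca7 each passed in 7 of 15 alternative settings, and the brightest Mxd4 probe in 6 of 15. None of the members passed the test between Flag, Gadd45a and G39A, with or without a term for the replicate number. On data simulated for Gadd45a against Flag, the fit without that term called none of the changed probes, so its lack of calls says little. With slide as a random block, the dim Cdca7l probe passed between Gadd45a and Flag (limma adjusted p = 0.0483). In the limma fit, 10 of the 15 tested probes were lower in replicate 2 and 0 were higher at an adjusted p under 0.05, where 54.9% of all tested probes passed: 23.9% of the tested probes were lower and 31.0% were higher. The median difference of the 15 probes was -0.42 (log2), against 0.10 for all tested probes. In bulk RNA, fewer cells that express a gene and less RNA per cell cannot be told apart, and, since the labels do not call the replicates separate cultures, each p-value covers the spread among these arrays alone.

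**Figure D1:**
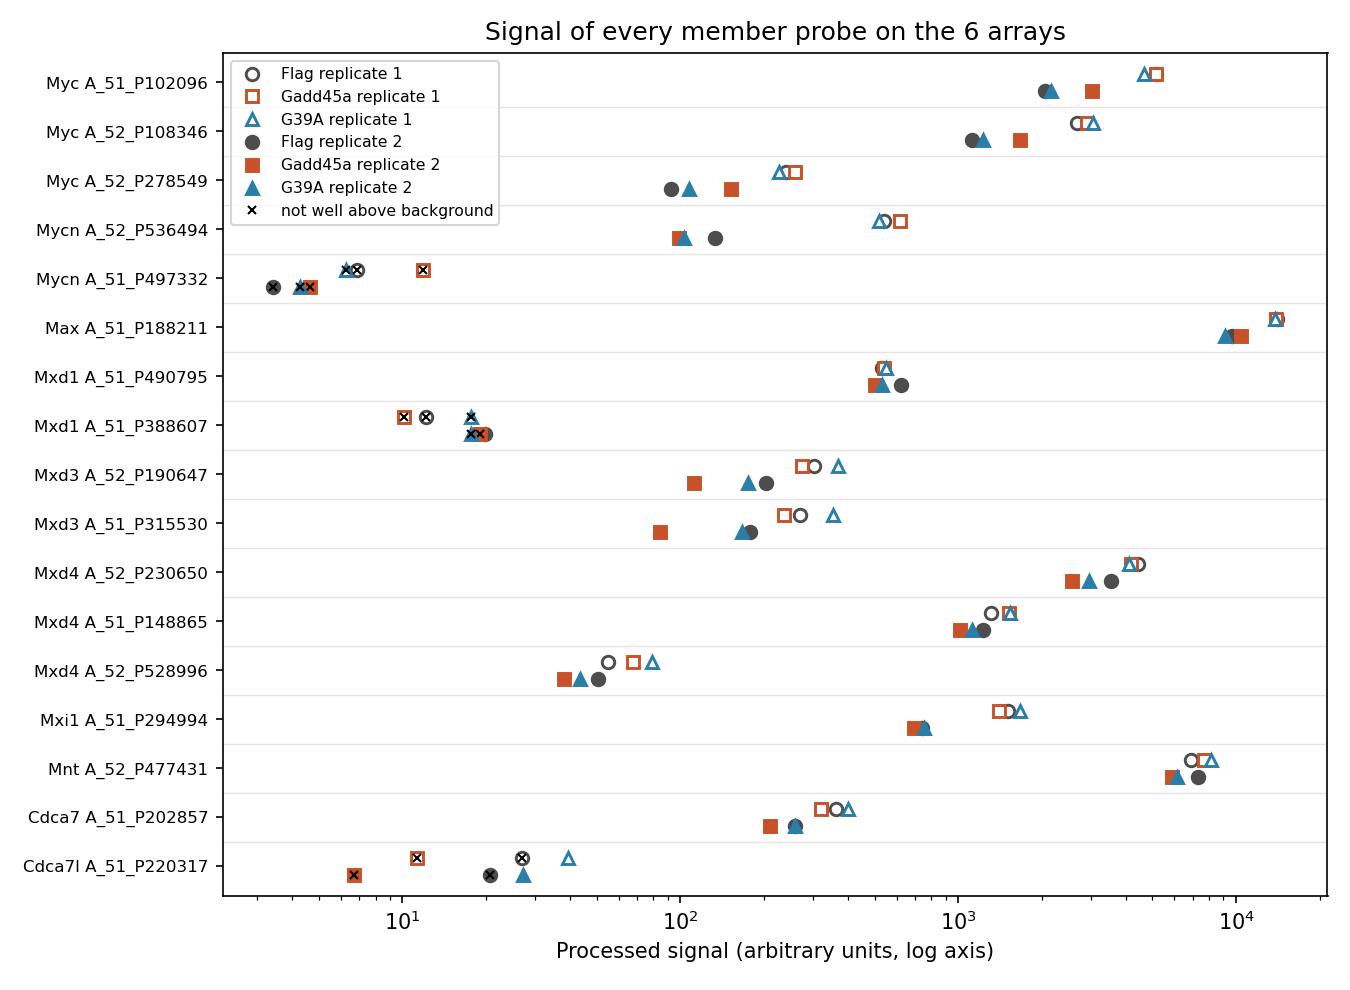
Processed signal (arbitrary units, log axis) of the 17 member probes on each array, with open symbols for replicate 1, filled symbols for replicate 2, and a cross where the probe was not well above background. Levels of different probes cannot be compared with each other; within a probe, the 3 replicate 2 arrays lie left of the 3 replicate 1 arrays for all 3 Myc probes, the bright Mycn probe, Max, both Mxd3 probes, all 3 Mxd4 probes, Mxi1 and Cdca7.

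Myc, the main activator of the network in fibroblasts, was bright on every array. The untranslated-region probe A_51_P102096, the mean of 10 spots, gave 5165, 5154 and 4665 on the replicate 1 arrays of Flag, Gadd45a and G39A. On the replicate 2 arrays it gave 2058, 3028 and 2155. The groups lay close together in replicate 1, and in replicate 2 the Gadd45a array stood above the other two, but no replicate 2 array reached a replicate 1 array. The probe across the stop codon, A_52_P108346, gave 2681, 2896 and 3050, then 1118, 1674 and 1228. The coding probe A_52_P278549 gave 240, 258 and 227, then 92.7, 152 and 107.3. All 3 probes thus repeated the pattern, with the Gadd45a array highest of the 3 in replicate 2.

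The limma difference of Myc, replicate 2 minus replicate 1, was -0.89 ± 0.16 (log2 ± SE, adjusted p = 0.011) for the untranslated-region probe, -0.95 ± 0.15 (adjusted p = 0.0071) for the stop-codon probe and -0.90 ± 0.17 (adjusted p = 0.0132) for the coding probe. It was not the same size in each group. By the untranslated-region probe, Myc was 2.43-fold lower on the second Flag array, 1.49-fold on the second Gadd45a array and 1.78-fold on the second G39A array. Each group has 1 array for each replicate number, so this difference between the groups was not tested. Without either G39A array, adjusted p rose to 0.0518 for the untranslated-region probe and 0.0557 for the coding probe, while the stop-codon probe stayed past the threshold (0.0447).

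Mycn, the family member best known from neural progenitors and embryonic stem cells, showed the largest difference of the members. Its probe A_52_P536494 (chr12:12943193-12943252, minus strand), at base 2242 of the transcript, gave 539, 617 and 517 on the replicate 1 arrays. It gave 133, 98.7 and 103 on the replicate 2 arrays. The difference was -2.15 ± 0.13 (adjusted p = 0.000505), and by group it came to -1.97 for Flag, -2.45 for Gadd45a and -2.04 for G39A. Mycn was the only tested member probe at least 2-fold lower, where 12.3% of all tested probes were, and 5.78% of all tested probes fell as far as it or further. The second Mycn probe, A_51_P497332, at base 1123, was not well above background on any of the 6 arrays (3.4 to 11.9) and was not tested, so the bright signal rests on 1 probe near the 3′ end. The difference kept its side of the threshold in all 15 alternative settings run (-2.24 to -1.55).

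Max, the shared partner of activators and repressors, gave 14065, 13928 and 13749 on the replicate 1 arrays and 9701, 10439 and 9153 on those of replicate 2 (A_51_P188211, chr12:78038283-78038342, minus strand). The replicate numbers did not overlap, and the 3 groups differed little within each. Its difference was small, -0.34 ± 0.094 (adjusted p = 0.0387). It lost its call when arrays were scaled on their medians (-0.20, adjusted p = 0.207) and when any one group was left out (adjusted p from 0.0805 to 0.134).

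Among the repressors, Mxi1 and Mxd3 were lower in replicate 2. Mxi1, also called Mxd2, gave 1516, 1402 and 1674, then 742, 694 and 753 (A_51_P294994, chr19:53446996-53447055, plus strand), a difference of -0.89 ± 0.084 (adjusted p = 0.00171) that passed in all 15 alternative settings. It differed by nearly the same amount in each group, -0.98 in Flag, -0.82 in Gadd45a and -0.87 in G39A. Mxd3, a repressor expressed in dividing cells around S phase, has 2 probes. A_52_P190647 (chr13:55427000-55427059, minus strand) gave 303, 273 and 369, then 204, 112 and 175, a difference of -0.80 ± 0.14 (adjusted p = 0.00946). A_51_P315530, whose 60 bases span 174 bases of the genome (chr13:55427253-55427426), gave 269, 237 and 353, then 178, 84.7 and 166, a difference of -0.88 ± 0.17 (adjusted p = 0.013). For both Mxd3 probes the Gadd45a array was the lowest of the 3 in each replicate number, and without either G39A array neither difference passed (adjusted p = 0.0504 and 0.0572).

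Mxd4, Mxd1 and Mnt, the other repressors, did not pass the test between replicate numbers. The bright Mxd4 probe A_52_P230650 (chr5:34516836-34516895, minus strand) gave 4432, 4184 and 4131, then 3549, 2577 and 2956, a difference of -0.33 ± 0.10 (adjusted p = 0.0505). It passed in 6 of 15 alternative settings. The other 2 Mxd4 probes had the same sign, -0.20 for A_51_P148865 (chr5:34520307-34520366, adjusted p = 0.167) and -0.42 for A_52_P528996 (chr5:34523656-34523715, adjusted p = 0.0654), which the files tie to a different transcript. Mxd1, a repressor induced as cells leave the cycle, was nearly level by A_51_P490795 (chr6:86597190-86597249, minus strand), at 533, 541 and 549, then 625, 503 and 532. Its difference was 0.20 ± 0.087 (adjusted p = 0.116), and in 1 of 15 alternative settings, scaling by the arrays' medians, it was called higher (0.34, adjusted p = 0.0362). The second Mxd1 probe, A_51_P388607 (chr6:86600751-86600810), reached the mark for being well above background on a single array, Flag replicate 2 (19.9), and was not tested. Mnt, the most widely expressed of these repressors, gave 6871, 7686 and 8122, then 7287, 5892 and 6142 (A_52_P477431, chr11:74658915-74658974, plus strand). The Mnt values of the 2 replicate numbers overlapped, with a difference of -0.059 ± 0.10 (adjusted p = 0.652) whose sign turned under median scaling (0.083).

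Of the partners, Cdca7 gave 364, 322 and 400, then 258, 210 and 259 (A_51_P202857, chr2:72324558-72324617, plus strand). Its 3 within-group differences lay between -0.45 and -0.34, and the fit gave -0.41 ± 0.081 (adjusted p = 0.015). That call was lost under median scaling (-0.26, adjusted p = 0.0816) and when any one group was left out (adjusted p from 0.0547 to 0.0721). Cdca7l (A_51_P220317, chr12:119116400-119116459, plus strand) was dim. It gave 26.96, 11.3 and 39.35, then 20.6, 6.69 and 27.2, and was well above background only on both G39A arrays. Its difference between replicate numbers, -0.38 ± 0.10 (adjusted p = 0.0329), rests partly on dim signals and was 0.001 after normexp background correction, and its call was lost in most other settings.

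**Figure D2:**
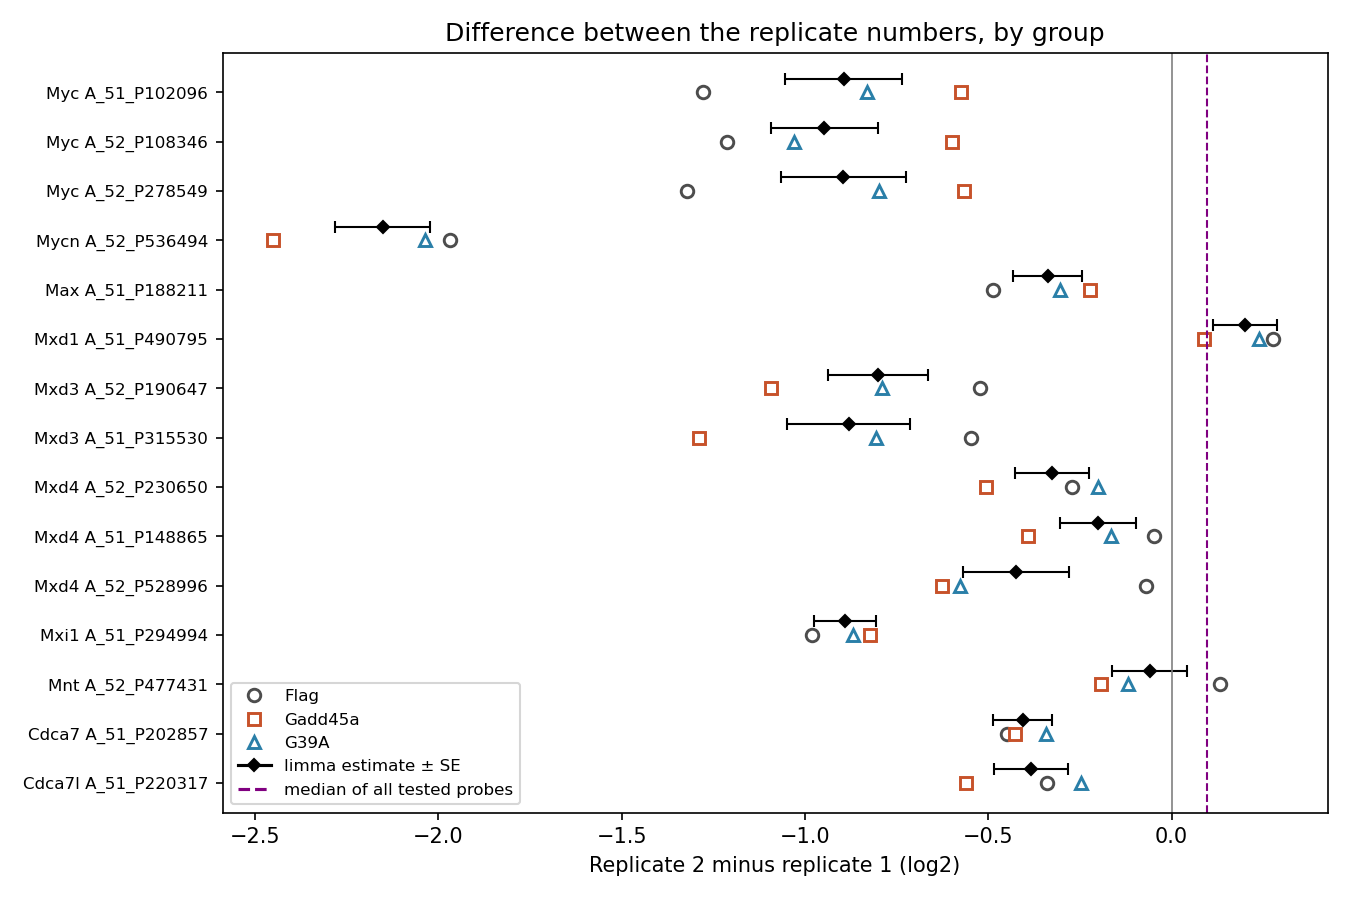
Replicate 2 minus replicate 1 (log2) for the 15 tested member probes, with 1 symbol for each group, a black diamond with the limma estimate ± SE, and a dashed line at the median of all tested probes, 0.10. The Mycn probe lies farthest to the left at -2.15, the Myc, Mxd3 and Mxi1 estimates lie between -0.95 and -0.80, and those of Mnt and Mxd1 lie close to the dashed line.

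Read on the scaled values, 11 of the 15 tested probes had all 3 replicate 2 arrays below all 3 replicate 1 arrays, where 28.3% of all tested probes did, and 1 (Mxd1) had them all above, where 38.4% did. Counted by gene, 7 of 10 members had a probe called lower, against 24.5% of 16467 gene names by their brightest probe. The counts depend on the scaling. Scaling on the arrays' medians moved the median of all tested probes from 0.10 to 0.24 and the share of called probes that were higher from 56.5% to 66.9%, and it left 7 member probes lower and 1 higher. Leaving out either G39A array left 3 member calls, against 7 without a Gadd45a array and 8 without a Flag array. Either array of a group gave the same result, because each such fit drops the whole group from this comparison. Why the counts differ between the groups was not tested.

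Markers of cell types moved with the replicate number as well. The summed signal of the 13 pluripotency markers was 4743 to 7346 on the replicate 1 arrays and 435 to 487 on the replicate 2 arrays, most of it from Pou5f1. Without Pou5f1 the other 12 summed to 892 to 1265 and then 431 to 483, with Zfp42 and Fbxo15 lower and Dppa5a (0.24, adjusted p = 0.083) and Sall4 (0.095, adjusted p = 0.603) not past the threshold. The sum of the 11 epithelial markers was 9368 to 9913 and then 1862 to 2989, with Krt18 (0.35, adjusted p = 0.278) and Krt19 (-0.017, adjusted p = 0.922) not past the threshold. Of the pluripotency markers 5 to 7 were well above background in replicate 1 and 3 to 5 in replicate 2, and of the epithelial markers 8 and then 4 to 5. The 12 fibroblast markers summed to 394990 to 519030 and then 728050 to 733870, and the 10 macrophage markers to 2239 to 2706 and then 5564 to 9458, with 8 and then 9 of the 10 well above background. Of these, 6 were called higher and 2, Itgam (-3.03) and Cd68 (-0.89), lower, and without Lyz2 the other 9 summed to 1430 to 1869 and then 1526 to 1865. The 21 genes of S phase and mitosis summed to 128820 to 150710 and then 61946 to 76874. The part of these differences in the values of the MYC network was not tested.

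Between Gadd45a and Flag, no member changed past the threshold. The limma fit called 0 of 25393 probes (0.0%), and 0 once the replicate number entered as a block, where the lowest adjusted p of a member was 0.356. On simulated data the fit without the block called none of the changed probes, so its counts of 0 say little about the groups. At an unadjusted p under 0.05, 136 probes passed without the block and 2002 (7.88%) with it, among them 1 and 3 member probes. Both arrays of a pair shared a slide in this comparison. Myc differed by -0.049 in replicate 1 and 0.65 in replicate 2 by the untranslated-region probe, by 0.065 and 0.68 by the stop-codon probe and by 0.060 and 0.82 by the coding probe, so it was nearly level on the first pair of arrays and higher with Gadd45a on the second. With the block, the Myc estimates were 0.30 ± 0.20, 0.37 ± 0.18 and 0.44 ± 0.21, with adjusted p of 0.742, 0.679 and 0.679. Mxd3 ran the other way, lower on both pairs of arrays, by -0.20 and -0.77 for one probe and -0.23 and -0.97 for the other. Its block estimates were -0.48 ± 0.17 and -0.60 ± 0.20 (adjusted p = 0.63 and 0.628).

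The Cdca7l probe was not well above background on any Flag or Gadd45a array, so no difference is given for it here, although the lowest adjusted p above and 1 of the member probes past an unadjusted p of 0.05 in each fit were its own. With slide as a random block limma called 19 probes (0.0748%), of which Cdca7l was 1 (adjusted p = 0.0483), but after normexp background correction its difference was -0.13. Cdca7 differed by -0.22 and -0.20 (block adjusted p = 0.676). Mycn (0.15 and -0.33) and Max (-0.060 and 0.20) turned sign between the replicate numbers, and the remaining members lay between -0.36 and 0.25. In all, 2 member probes were higher in both replicate numbers and 6 were lower, where 25.6% and 30.3% of all tested probes were. The 6 lower probes include the dim Cdca7l probe, which entered the test only through the G39A arrays.

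Between G39A and Flag, differences of the members were small. The replicate 1 arrays of this pair lay on different slides. limma called 0 of 25393 probes without and with the block (0.0% each), and 115 and 763 (3.0%) passed at an unadjusted p under 0.05, among them 0 and 1 member probe. The Myc probes differed by -0.35 and 0.10, -0.013 and 0.17, and -0.28 and 0.25, turning sign between the replicate numbers each time. Mycn was lower on both pairs of arrays (-0.26 and -0.33, block estimate -0.29 ± 0.16, adjusted p = 0.995). Cdca7l was well above background on both G39A arrays and on neither Flag array, and it entered the test only through the G39A arrays, so its being higher there is no independent result. It was the 1 member probe past an unadjusted p of 0.05. Of the 15 probes, 1 was higher and 4 were lower in both replicate numbers, where 20.4% and 27.6% of all tested probes were. The 1 higher probe was that of Cdca7l, so this count is no independent result either.

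Between Gadd45a and G39A, by the labels a gene and its mutant, 0 of 25393 probes were called without and with the block (0.0% each), and 155 and 2101 (8.27%) passed at an unadjusted p under 0.05, among them 1 and 2 member probes. On the scaled values, Myc was higher with Gadd45a on both pairs of arrays by each probe, 0.30 and 0.55, 0.078 and 0.51, and 0.34 and 0.57. The unscaled signals of the stop-codon probe ran the other way in replicate 1 (2896 for Gadd45a and 3050 for G39A). The replicate 1 arrays of this pair lay on different slides. The block estimates were 0.42 ± 0.20, 0.29 ± 0.18 and 0.45 ± 0.21, with adjusted p of 0.622, 0.651 and 0.622. Max was higher as well (0.17 and 0.25, block adjusted p = 0.638). Mxd3 was lower on both pairs, -0.28 and -0.59 by one probe and -0.43 and -0.91 by the other (block adjusted p = 0.606 and 0.592). Cdca7l was dim on both Gadd45a arrays and entered the test only through the G39A arrays, so its being higher in G39A is no independent result. It was the 1 member probe past an unadjusted p of 0.05 without the block and 1 of the 2 with it. It is also 1 of the 6 probes counted as lower next. In all, 5 probes were higher and 6 lower in both replicate numbers, where 31.6% and 27.8% of all tested probes were. This comparison shares its arrays with the others, so the Myc and Mxd3 values are not independent of those against Flag.

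**Figure D3:**
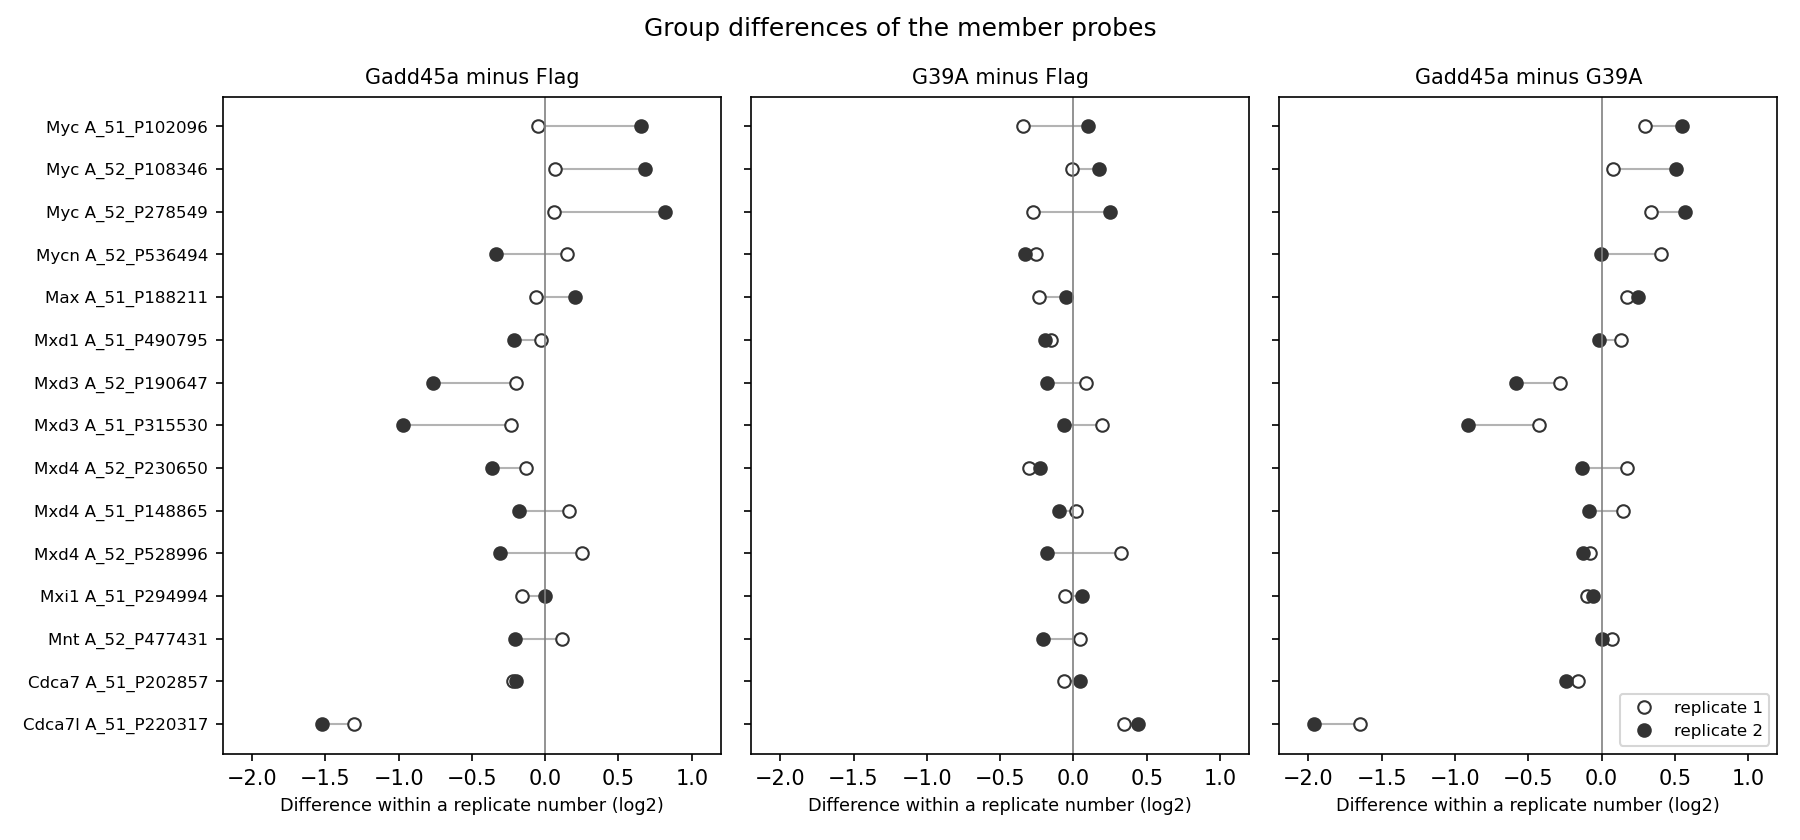
Difference between groups within a replicate number (log2) for the 15 tested member probes, with open circles for replicate 1 and filled circles for replicate 2, in 3 panels. The Myc probes lie right of 0 and the Mxd3 probes left of 0 in Gadd45a minus G39A, the Cdca7l points rest on dim Flag and Gadd45a arrays, while in G39A minus Flag 10 of the 15 probes lie on opposite sides of 0 in the replicate numbers.

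Other genes around the network were read from 6 lists, 1 probe a gene. By that reading 24.5% of all 16467 genes were called lower and 32.3% higher between replicate numbers, and each count below stands against these shares. Of 6 measured further members of the extended bHLH network, 4 were tested between replicate numbers. Mlx, which pairs with the MONDO factors and some MXD proteins, was lower (-0.40 ± 0.086, adjusted p = 0.0181, a call lost under median scaling), and Mga, a MAX partner that also carries a T-box, was higher (0.34 ± 0.088, adjusted p = 0.0314). Mlxip (0.23, adjusted p = 0.192) and Mycl (0.26, adjusted p = 0.669) did not pass, and Mlxipl and Mycs were not well above background on any array. Of 26 cofactors and turnover factors, 5 were lower and 2 higher, which is fewer in each direction than the shares of all genes. The 4 of smallest p were Usp28 (-1.10), Fbxw7 (-0.94), Aurka (-0.93) and Cip2a (-0.95), with adjusted p from 0.00113 to 0.00554. FBXW7 marks MYC proteins for degradation, and USP28, AURKA and CIP2A are known to protect them from it. The list's median was 0.062, it turned to -0.0070 under quantile normalization, and median scaling gave 8 higher and 4 lower.

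All 6 genes of the list called CDCA7 partners passed, 4 lower and 2 higher, where 24.5% and 32.3% of all genes were. Binding to CDCA7 was not tested for any of them, and Zbtb24 is listed as an activator of the gene. Uhrf1, a reader of hemimethylated DNA, differed by -0.90 (adjusted p = 0.00273) and Psip1, a chromatin-binding coactivator, by -0.85 (adjusted p = 0.00304). The remodeller Hells differed by -0.35 (adjusted p = 0.0262) and the maintenance methyltransferase Dnmt1 by -0.38 (adjusted p = 0.0245). Higher in replicate 2 were the de novo methyltransferase Dnmt3b, by 0.65 (adjusted p = 0.00884), and Zbtb24, a zinc finger activator of Cdca7, by 0.39 (adjusted p = 0.0227). Under median scaling only 2 of the 4 lower calls passed. Cdca7 itself was lower, as given above, so within this group Zbtb24 and Cdca7 ran opposite ways.

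Genes known to be induced by MYC did not move one way. Of 45, 18 were higher and 5 lower in replicate 2, where 32.3% and 24.5% of all genes were. Their median was 0.27 against 0.10 for all tested probes, and quantile normalization changed the counts to 11 higher and 8 lower. The purine synthesis genes Paics and Ppat, which share a promoter region, were lower (-1.63 each, adjusted p = 0.000479 and 0.000549), while the folate carrier Slc19a1 (1.19, adjusted p = 0.000666) and the mitochondrial enzyme Shmt2 (0.99, adjusted p = 0.00183) were higher. Of 8 genes known to be repressed by MYC, 6 were higher and 0 lower, where 32.3% and 24.5% of all genes were, with a median of 1.45. Gadd45a is itself a gene of this list. Gas1, a growth arrest gene, was higher by 5.41, Pdgfrb by 2.66, Ndrg2 by 2.34 and the cell cycle inhibitor Cdkn2b by 1.25 (adjusted p from 7.78e-05 to 0.00161). Gas1 and Pdgfrb are also fibroblast genes, and the fibroblast markers were higher on the same arrays. Of 21 genes of S phase and mitosis, 18 were lower and 2 higher, where 24.5% and 32.3% of all genes were, with a median of -0.80, among them Rrm2 (-1.28), Mcm5 (-1.22), Mcm6 (-1.08) and Ccna2 (-1.31).

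**Figure D4:**
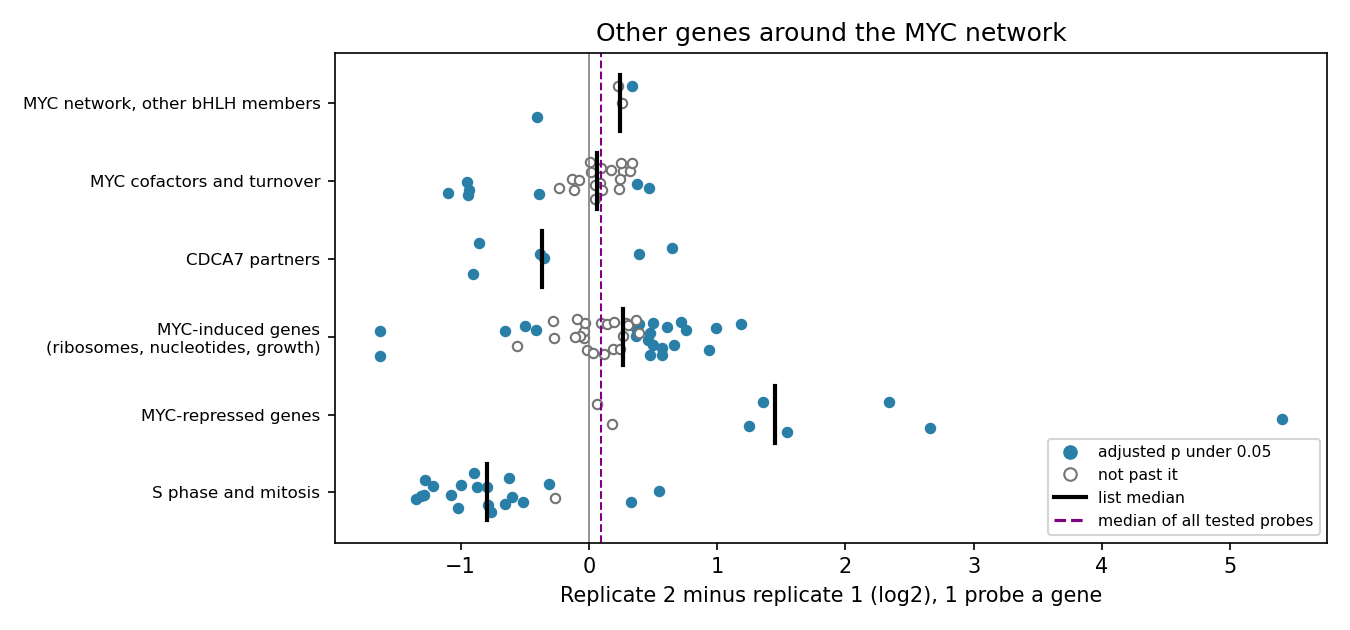
Replicate 2 minus replicate 1 (log2) for the tested genes of 6 lists, 1 point a gene by its brightest probe, filled where limma's adjusted p was under 0.05, with a black bar at each list's median and a dashed line at the median of all tested probes. The MYC-repressed list has its median at 1.45 and the S phase and mitosis list at -0.80, while the MYC-induced list spreads from -1.63 to 1.19.

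Between the groups, 0 genes of any of these lists passed limma's threshold. Gas1 was lower with Gadd45a than with Flag in both replicate numbers (-0.68 and -0.51, block adjusted p = 0.548). The ribosome assembly gene Rrp9 was higher with Gadd45a than with Flag (0.26 and 0.46, block adjusted p = 0.608) and than with G39A (0.33 and 0.37, block adjusted p = 0.592). Other genes of smallest p, which did not pass either, were Rrp12, Ndrg2, Mki67, Bub1, Ruvbl2 and Usp28 between Gadd45a and Flag, Trrap, Ddx21, Tfrc, Ndrg1, Pdgfrb, Mcm5 and Aurkb between G39A and Flag, and Bub1, Aurkb, Srm, Ndrg2, Ruvbl2 and Gas1 between Gadd45a and G39A.

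The genes whose scaled signals followed the members most closely over the 6 arrays were ranked by Pearson correlation, as a description with no test, since arrays of a replicate number share a slide and their level. For Myc, by its brightest probe, these were Tac1, a neuropeptide precursor (r = 0.997), Retreg1, a receptor for turnover of the endoplasmic reticulum (r = 0.997), and Ttc9 (r = 0.996). Tac1 gave 188, 183 and 153, then 55.5, 88.7 and 53.6, with the Gadd45a array highest of the 3 in replicate 2, as for Myc. For Myc, 12 of 21637 probes well above background on all arrays reached an r of at least 0.99, and for Mycn 369 did. Those closest to Mycn were the histone gene H4c6 (r = 0.9996), the scaffold gene Magi2 (r = 0.999) and Crebl2 (r = 0.999).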

How the data were processed

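Expression was measured by hybridising total RNA of 6 samples, 2 in each of 3 groups, to one-colour (Cy3) mouse arrays. The deposited scanner files hold each spot's processed signal as an intensity, background-subtracted by the scanner software, which was Agilent Feature Extraction 10.7 per the submitters' processing notes. Per the file headers each spot also carries a 0 or 1 mark (a category, not a score) for being well above background, and probe positions are on mm9. The authors' deposited value table holds log2 signals with a median of 6.17 on each array. Its values correlated with their own array at r of at least 0.9989 and rose with its signal, and at each rank the arrays differed by at most 0.084, as after quantile normalization. The sources used here do not give its other steps.

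Spots of a probe were averaged without outlier spots, and log2 signals were taken minus each array's 75th percentile. Probes were tested if they were well above background throughout at least 1 group (2 arrays) or 1 replicate number (3 arrays), 25393 of 41096 complete probes, with limma 3.58 in R 4.3 and Benjamini-Hochberg adjustment over all of them at 0.05. Groups were compared in a fit of all 6 arrays, and replicate numbers in a fit with a term for group. The fits were tested on simulated data. Between groups, simulated for Gadd45a against Flag alone, the fit without the replicate block recovered none of the changed probes and the fit with it most. The fit between replicate numbers recovered most, with a share of false calls above the nominal threshold. The number of arrays limits the precision. Of the probes, 27660 were named through their accession in a RefSeq table (GRCm38.p6), and the others kept the files' names. A gene of a list is read by its brightest probe.

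Same-numbered arrays deviated together from their group means (r from 0.930 to 0.933), so the labels' replicate numbers were taken to pair the arrays. The pairing comes from these correlations over only 2 numbers, and not from a stated litter, batch or day. Alternatives were median scaling, quantile normalization, normexp, the deposited table, no filter on dim probes, 1 probe a gene, the replicate block, slide as a block and leaving out each array, and 3 were chosen after seeing the data. Members and lists were chosen with earlier results of these data known. All member probes are described. Of the other bHLH genes and CDCA7 partners all are named, and of each other list up to 4 genes of smallest p between replicate numbers and up to 2 in each group comparison with the replicate block, except 1 gene that is not reported here.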

Additional observations from a re-analysis of the deposited data

Results flagged for a closer look

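Replicate 1 and replicate 2 pointed opposite ways for 7 of the 15 tested member probes in Gadd45a minus Flag. They did so for 10 in G39A minus Flag and 4 in Gadd45a minus G39A. Of these differences, 5 were flagged and are given here. Whether the replicate numbers differ in them was not tested, since each pair has 1 array a group. By the Myc coding probe A_52_P278549, G39A minus Flag was -0.28 (log2) in replicate 1 and 0.25 in replicate 2. Of Mxd4, the probe A_52_P230650 gave 0.17 and -0.14 for Gadd45a minus G39A. The Mxd4 probe A_51_P148865 gave 0.16 and -0.18 for Gadd45a minus Flag. The Mxd4 probe A_52_P528996 gave 0.25 and -0.31 for Gadd45a minus Flag, and 0.33 and -0.18 for G39A minus Flag.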

How the results depend on the processing

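The split of the members by replicate number kept its direction for Myc, Mycn, Max, Mxd3, Mxi1 and Cdca7 in every alternative run, and Mycn, Mxi1 and the Myc stop-codon probe also kept their calls. The number of member probes called was 3 to 8 when an array was left out, lowest without either G39A array, and 7 to 11 under the other settings. Mnt turned to 0.083 under median scaling and ranged from -0.16 to 0.0069 without an array, and Cdca7l turned to 0.001 under normexp. For Cdca7l and the other dim probes, signal near background limits any statement.

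Between groups, the replicate block gave 0 called probes in each comparison, as did the fit without it. On data simulated for Gadd45a against Flag, the fit without the block called none of the changed probes. The block with the deposited table, chosen after seeing the data, called 1 probe between Gadd45a and G39A, not a member, and slide as a random block called 19 between Gadd45a and Flag, of which 1 was a member. Small differences turned sign. For Gadd45a minus Flag, Mxd4 A_51_P148865 was 0.013 under median scaling, 0.0032 under quantile normalization and 0.0024 with the deposited table, with or without the block, and Mxd4 A_52_P528996 was 0.026 under normexp, with or without the block. For G39A minus Flag, Mxi1 was -0.0083 under normexp, with or without the block. With slide as a fixed and as a random block, the Myc coding probe was 0.059 and 0.062, Mxd4 A_52_P528996 was -0.041 and -0.018, and Cdca7 was 0.038 and 0.037. For Gadd45a minus G39A, Mxd4 A_52_P230650 was -0.077 and -0.068, and Mxd4 A_52_P528996 was 0.013 with the fixed block. The cause of these turns was not tested.

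Leaving out 1 array unbalances the replicate numbers between groups, and the lone array is then assumed to vary like the others. For Gadd45a minus Flag the ranges were -0.34 to 0.94 for Myc A_51_P102096, -0.23 to 0.98 for A_52_P108346 and -0.22 to 1.10 for A_52_P278549. They were -1.32 to 1.13 for Mycn, -0.17 to 0.32 for Max, -0.26 to 0.018 for Mxd1, -1.03 to 0.065 for Mxd3 A_52_P190647 and -1.25 to 0.042 for A_51_P315530. They were -0.50 to 0.0070 for Mxd4 A_52_P230650, -0.20 to 0.19 for A_51_P148865, -0.34 to 0.29 for A_52_P528996, -0.57 to 0.41 for Mxi1, -0.14 to 0.049 for Mnt and -0.43 to 0.015 for Cdca7. For G39A minus Flag the ranges were -0.76 to 0.52 for Myc A_51_P102096, -0.53 to 0.69 for A_52_P108346, -0.68 to 0.65 for A_52_P278549, -1.31 to 0.73 for Mycn and -0.38 to 0.10 for Max. They were -0.44 to 0.35 for Mxd3 A_52_P190647, -0.34 to 0.47 for A_51_P315530, -0.12 to 0.044 for Mxd4 A_51_P148865, -0.21 to 0.36 for A_52_P528996, -0.49 to 0.49 for Mxi1 and -0.23 to 0.22 for Cdca7. For Gadd45a minus G39A the ranges were -0.22 to 0.81 for Myc A_52_P108346, -1.03 to 1.43 for Mycn, -0.065 to 0.17 for Mxd1, -0.98 to 0.11 for Mxd3 A_52_P190647 and -0.24 to 0.27 for Mxd4 A_52_P230650. They were -0.17 to 0.23 for Mxd4 A_51_P148865, -0.41 to 0.21 for A_52_P528996, -0.51 to 0.36 for Mxi1, -0.058 to 0.13 for Mnt and -0.41 to 0.012 for Cdca7.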
